A study of Gallus gallus with 18 samples.

Results

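The livers of day-old broiler chicks were compared with those of adult breeder roosters within the folic acid-excess diet of the series. The comparison takes 6 of the 18 libraries. The 3 adult libraries are livers of Arbor Acres breeder roosters labelled as 35 weeks old that had eaten a corn and soybean meal feed with 5 mg folic acid per kg (FE). The 3 day-old libraries are livers of 1-day-old offspring whose fathers had eaten that feed, and each one is a pool of equal RNA amounts from 4 chicks of the same replicate. The chicks were grouped by the father's feed, and their mothers, Arbor Acres breeder hens, ate corn and soybean meals with folic acid at a level the labels do not give. Diet, therefore, means the bird's own feed in the adults and the father's feed in the chicks. The sexes of the chicks are not given in the labels. Genes were taken into the comparison when their FPKM (fragment counts scaled by gene length and library total) reached at least 1 in at least 3 of the 6 libraries, which held for 9847 of the 23741 genes in the deposited table. The study raised roosters on 2 folic acid levels and measured poly(A) RNA in their liver and sperm and in the liver of their offspring. In the folic acid-control diet (FCON), with 0.25 mg per kg, the age comparison rests on 6 other liver libraries. They are used only to show where the FE age difference is unlike the FCON one.

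As background, the liver of a newly hatched chick is a growing organ that still takes in lipid and protein from the absorbed yolk, so cholesterol and fatty acids reach it ready made. In the adult rooster the liver works on a starch-rich feed, and in birds it is the main site where new fatty acids are made. Bird hepatocytes also secrete most plasma proteins, turn nitrogen into uric acid and run much of folate-dependent 1-carbon metabolism, while resident macrophages and lymphocytes settle in the organ as the immune system matures.

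Library totals ran from 16979085 to 41014961 counts. A pair of libraries stood apart before any test. Day-old pool 2 held 1299 CPM (counts scaled to a common library total) of W chromosome genes, against 2.59 and 9.34 CPM in the other day-old pools and 0 to 2.07 CPM in the adult livers. The same pool had the lowest share of nuclear ribosomal RNA (rRNA), 4.70% of its counts, and adult liver 1 had the highest, 60.5%. The rRNA share was 14.0%, 4.70% and 20.4% in the day-old pools and 60.5%, 44.4% and 32.8% in the adult livers, so it differed between the ages without overlap (exact permutation test, two-sided, p = 0.1, the smallest that 3 against 3 allows). With the rRNA genes removed before scaling, 2669 of the 2693 called genes that could still be tested were called in the same direction. The part of the rRNA share in single results was not tested. Expression levels below are CPM scaled by the trimmed mean of M values (TMM) and are not divided by gene length, so levels are compared between libraries and not between genes. Means are given with their SD over 3 libraries, day-old first and adult second. Hepatocyte markers were present at every age: the 20 tested markers summed to 39273 to 73662 CPM in the day-old pools and to 57576 to 88866 CPM in the adult livers, and none was at 0 in either group.

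The 6 livers separated by age group before anything else. The groups also differ in pooling and in whose feed held the folic acid, the bird's own or the father's. These cannot be told apart from age here, and age difference below means the difference between the groups. The first principal component of the log2 CPM values carried 63.5% of the variance and put the 3 day-old pools on one side and the 3 adult livers on the other. At a Benjamini-Hochberg adjusted p below 0.05 in edgeR's quasi-likelihood test, the test behind every adjusted p given here, 2700 genes differed (27.4% of those tested). Of these, 1444 were higher in day-old liver (14.7% of genes tested) and 1256 were lower (12.8%). These shares are the background for every list count below, and a list near them does not stand apart from all genes. A difference of at least 2-fold was seen in 2281 of them (23.2%). In 4662 genes (47.3%) the 3 values of one age did not overlap those of the other, with the day-old pools above in 25.1% and the adult livers above in 22.2% of genes tested. The median log2 difference, day-old minus adult, was 0.04 over all genes tested. The number of calls was 2153 without day-old pool 2, 2215 without adult liver 1 and 1795 without both. It fell to 1770 without adult liver 2 and to 1519 without adult liver 3. The balance of the directions depended on the scaling: 53.5% of calls were higher in day-old liver with TMM, 62.1% with the total count without rRNA, and 90.6% with limma on log2(FPKM + 1), where the median of all genes stood at 0.72. Adult libraries are labelled as separate roosters and pools as separate chicks, and p-values measure the spread between these few libraries. Replicates differed beyond counting error in both groups, in 78.6% to 79.0% of genes between day-old pools and in 58.3% to 67.8% between adult livers. A gene could pass the FPKM filter through 1 age alone: 578 of the 9847 genes reached FPKM 1 in no adult liver and 102 in no pool. Such genes enter through the age in which they are high. FPKM is relative to a total that includes rRNA, so the filter was stricter for the adult livers. The part of this in the 578 and 102 was not tested. Without the genes that passed through 1 age alone 9167 remained, of which 1165 were called higher and 1157 lower in day-old liver. Genes that passed through 1 age alone made up 33 of the 52 tested cell cycle genes, 6 of the 12 tested T and NK cell markers and at most 3 members of any other list. Counts without them are given for some of the lists below, and the counts of other lists include any such members.

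**Figure D1:**
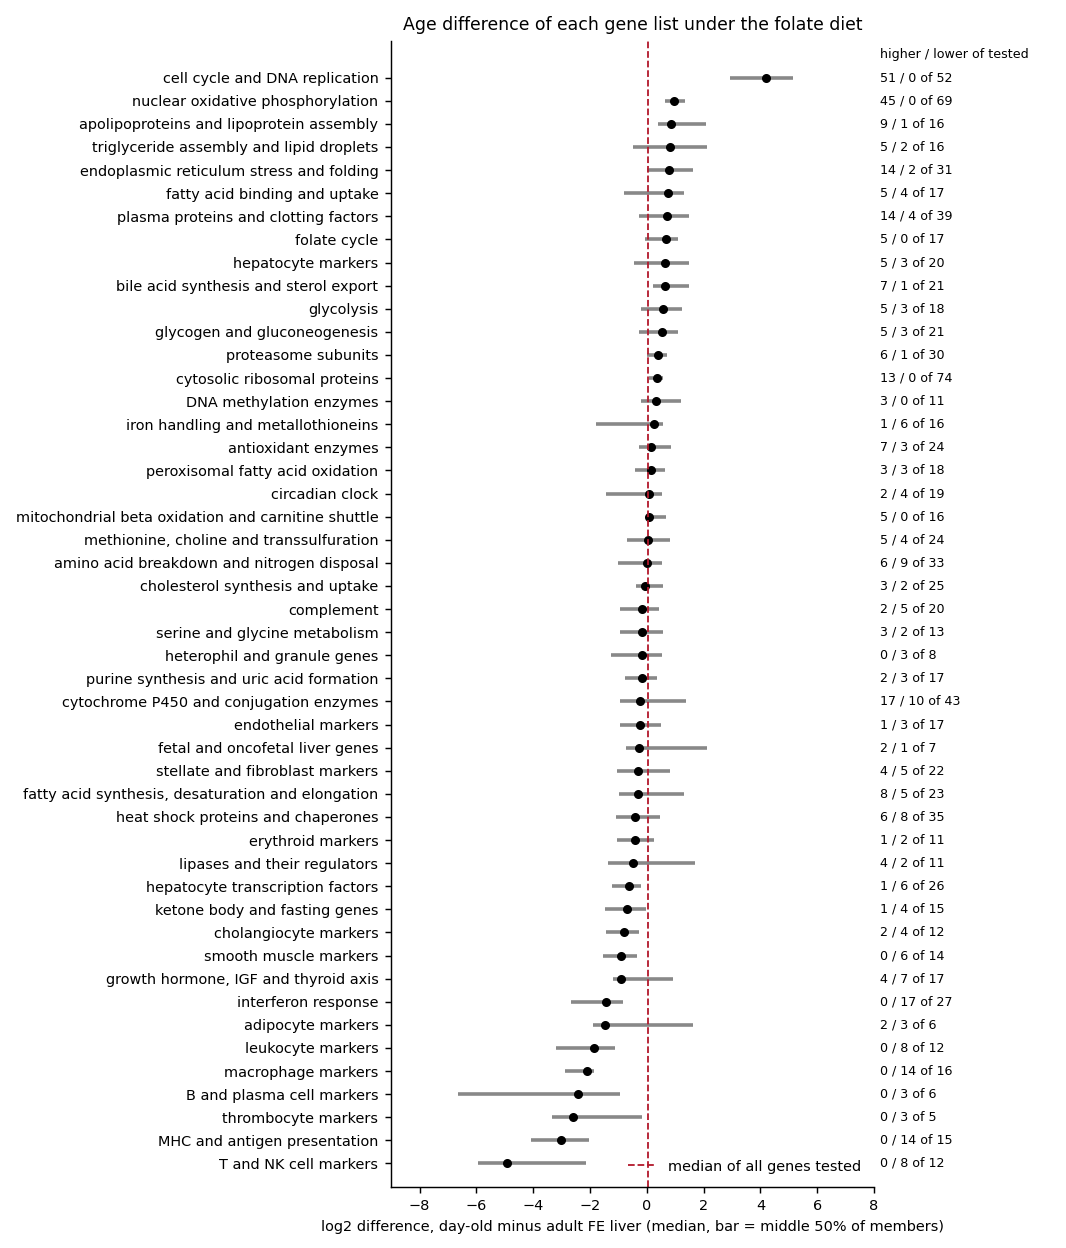
Log2 difference between day-old and adult FE liver for each gene list with at least 5 tested members: points are medians, bars span the middle 50% of the members, and the dashed line is the median of all genes tested. The numbers on the right count members called higher and lower in day-old liver, from 51 and 0 of 52 for cell cycle genes to 0 and 8 of 12 for T and NK cell markers.

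Genes of cell division were higher in day-old liver in nearly all tested cases, and 6 of the 10 largest named differences towards the chick belonged to members of this list. Of 52 tested genes of the cell cycle and DNA replication, 51 were higher in day-old liver and none was lower, with a median log2 difference of 4.19 beside 0.04 over all genes. Without the 33 that reached FPKM 1 in the pools alone, 19 of 19 were higher, with a median of 2.79. The summed level of the list was 1598, 1655 and 923 CPM in the day-old pools and 134, 138 and 125 CPM in the adult livers. RRM2, the small subunit of ribonucleotide reductase that makes the building blocks of DNA, stood at 98.5, 62.2 and 42.8 CPM in the day-old pools and 0.624, 0.99 and 1.13 in the adult livers. Every pool lay far above every adult liver (log2 difference 6.18, SE 0.43, adjusted p 0.000256). TOP2A, the topoisomerase that untangles sister chromatids, showed 45.9, 84.2 and 49 CPM in the day-old pools and 0.357, 1.46 and 1.2 in the adult livers, again with no overlap (log2 difference 5.84, SE 0.50, adjusted p 0.000371). MCM3 and MCM5, subunits of the helicase that opens replication origins, averaged 32.6 ± 13 against 0.375 ± 0.449 CPM and 59.3 ± 17.2 against 1.08 ± 0.936 CPM (log2 differences 6.31 and 5.82, adjusted p 0.00114 and 0.0022). The mitotic kinase PLK1 averaged 26.6 ± 13.6 against 0.444 ± 0.386 CPM, and the condensin subunit SMC2 30.1 ± 13.2 against 0.56 ± 0.778 CPM. CDCA3, a mitotic regulator outside the list, averaged 34.2 ± 14.9 against 0.529 ± 0.465 CPM. Each of these 3 was under 2 CPM in every adult liver. PRC1, which bundles the spindle midzone, stood at 29.2, 47.1 and 32.4 CPM in the day-old pools and 1.43, 2.21 and 1.95 in the adult livers (log2 difference 4.27, SE 0.33, adjusted p 0.000261). The proliferation marker MKI67 followed the same order, at 27.2, 31.2 and 17.5 CPM in the day-old pools and 0, 1.8 and 0.441 in the adult livers (log2 difference 4.99, SE 0.86, adjusted p 0.00443). KNTC1, a kinetochore gene outside the list, averaged 23.6 ± 2.18 against 0.631 ± 0.727 CPM. POLA1, the catalytic subunit of DNA polymerase alpha, was the single tested member that was not called (18.9, 13.1 and 9.09 CPM in the day-old pools and 3.39, 7.39 and 6.36 in the adult livers, adjusted p 0.053) and is named after its values were seen. Of the 51 calls, 46 remained without day-old pool 2, 48 without adult liver 1 and 45 without adult liver 3, the fewest when any 1 library was left out. In bulk liver, fewer cells of a kind and less RNA per cell cannot be told apart, and this holds for each gene group below.

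**Figure D2:**
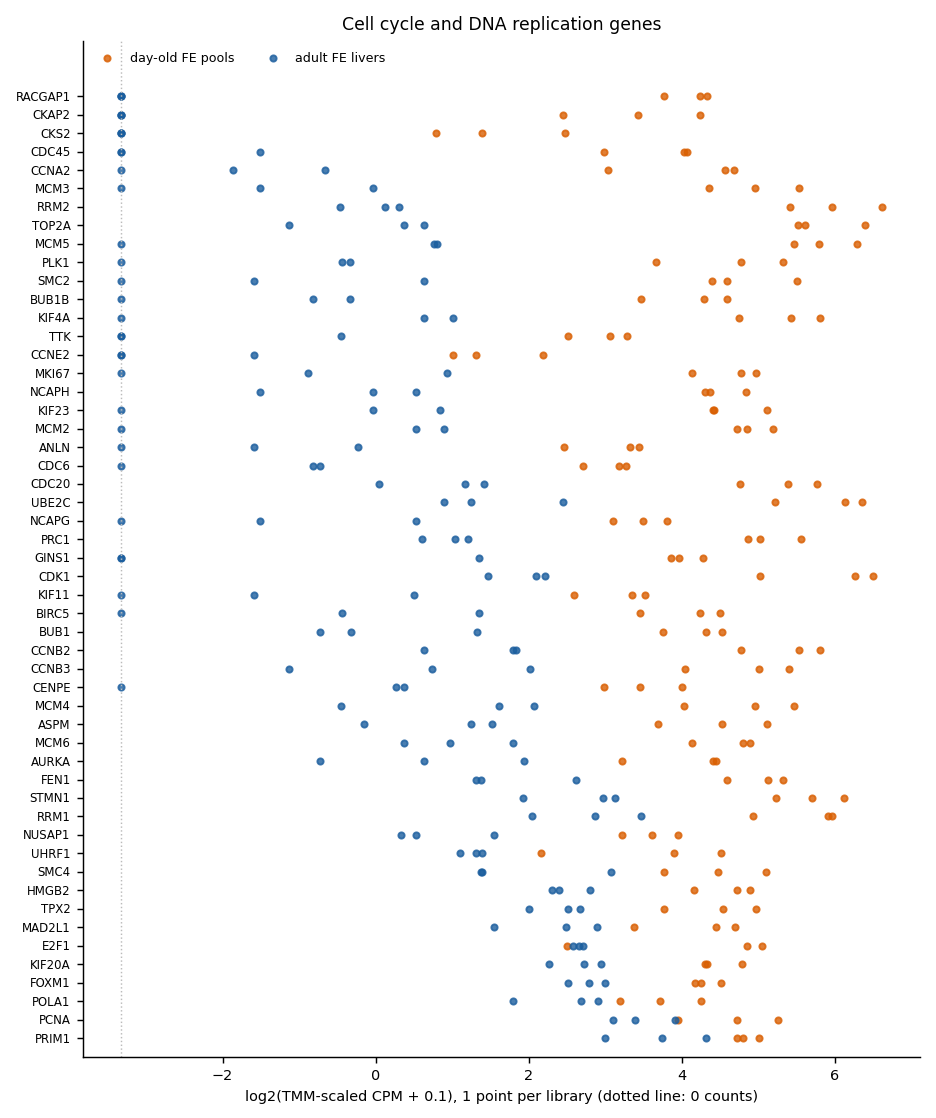
Levels of the 52 tested cell cycle and DNA replication genes in each FE library, as log2(TMM-scaled CPM + 0.1), sorted by their age difference. Orange points are the 3 day-old pools and blue points the 3 adult livers, which lie below the pools in 51 of the 52 genes.

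Members of the IGF2BP family of oncofetal RNA-binding proteins and of the growth hormone axis also differed between the ages. IGF2BP3, which binds and protects fetal transcripts, stood at 77.8, 63.3 and 74.8 CPM in the day-old pools and 1.07, 1.8 and 2.83 in the adult livers (log2 difference 5.22, SE 0.37, adjusted p 0.000256). Its relative IGF2BP1 averaged 33 ± 18.7 against 5.64 ± 2.6 CPM (log2 difference 2.56, SE 0.49, adjusted p 0.00669). The third member of the family, IGF2BP2, overlapped between the ages at 29.8 ± 10.4 against 58.5 ± 19.4 CPM and was not called (log2 difference -0.98, adjusted p 0.0746; named after its values were seen). All pools lay above all adult livers for IGF2BP3 and IGF2BP1, which were the members called higher in a list of 7 fetal and oncofetal genes (median -0.29). IGF2BP3 reached FPKM 1 in the pools alone. Of the 5 members that reached it at both ages, 1 was higher and 1 lower (median -0.47). The list's single member called lower was CDKN1C, an inhibitor of cell division, with 6.91, 4.26 and 6.38 CPM in the day-old pools and 14.5, 16.6 and 22.5 in the adult livers (log2 difference -1.61, SE 0.33, adjusted p 0.00904). Among 17 tested genes of the growth hormone, insulin-like growth factor and thyroid axis, 4 were higher and 7 lower in day-old liver (median -0.92). GHR, the growth hormone receptor, averaged 18.9 ± 7.49 against 131 ± 22.2 CPM (log2 difference -2.79, SE 0.33, adjusted p 0.000958). IGFBP4, a binding protein that holds growth factor in the circulation, was at 33.7, 19.6 and 20.8 CPM in the day-old pools and 404, 317 and 362 in the adult livers. Each adult liver lay far above each pool (log2 difference -3.87, SE 0.29, adjusted p 0.000256). IGFBP2, another such binding protein, went the other way at 56.5 ± 18.5 against 10.4 ± 2.17 CPM (log2 difference 2.44, SE 0.31, adjusted p 0.00125), as did DIO1, a deiodinase that handles thyroid hormone, at 68.8 ± 19.7 against 11.7 ± 3.71 CPM (log2 difference 2.55, SE 0.33, adjusted p 0.00148).

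FABP1, the liver fatty acid binding protein that carries fatty acids and bile acids in the hepatocyte, had the largest positive difference among named genes with counts in both groups. Its row (gene ID 374015; chromosome 4, 85982308 to 85986038, minus strand in the coordinates of the table) held 1677, 1356 and 1161 CPM in the day-old pools and 4.37, 1.51 and 0.693 in the adult livers. FABP1 was thus abundant in every pool and close to absent in every adult FE liver (log2 difference 9.37, SE 0.71, adjusted p 0.000256). The list of fatty acid binding and uptake genes had 5 of 17 members higher and 4 lower. Of the 15 members that reached FPKM 1 at both ages, 4 were higher and 3 lower. The list included FABP4, the adipocyte type of the same family, which reached FPKM 1 in the adult livers alone. It was at 0.412, 0 and 0.216 CPM in the day-old pools and 11, 11.4 and 10.7 in the adult livers (log2 difference -5.78, SE 1.00, adjusted p 0.00448). FABP4 was thus nearly absent from day-old liver and low in the adult, opposite in order to FABP1.

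A pair of bile acid enzymes and several transporters of sterols and bile acids were higher in the chick. Of 21 tested genes for bile acid synthesis and sterol export, 7 were higher and 1 was lower in day-old liver (median 0.62). CYP7A1, ABCG5 and ABCG8 reached FPKM 1 in the pools alone, and of the other 18 members 4 were higher and 1 lower (median 0.43). CYP8B1, the enzyme that sets the share of cholic acid, stood at 276, 370 and 259.8 CPM in the day-old pools and 3.03, 9.78 and 4.41 in the adult livers (log2 difference 5.70, SE 0.48, adjusted p 0.000359). CYP7A1, the rate-limiting enzyme of the classical pathway, was at 16.5, 8.88 and 13.4 CPM in the day-old pools and 1.34, 0 and 0.252 in the adult livers (log2 difference 4.73, SE 0.97, adjusted p 0.00902). Both were low in all 3 adult FE livers, and neither gene overlapped between the ages. ABCG5 and ABCG8 form the pump that sends sterols into bile. ABCG5 averaged 14.4 ± 2.76 against 0.189 ± 0.327 CPM, and ABCG8 was at 12.5, 20.5 and 24.6 CPM in the pools and at 0 counts in all 3 adult livers, at least 283-fold higher in the day-old group when 3 counts are assumed over the adult group. The single member that was lower was CYP7B1, an enzyme of the alternative pathway, at 21.5 ± 1.92 against 62.8 ± 13 CPM (log2 difference -1.54, SE 0.24, adjusted p 0.00272).

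Genes of cholesterol synthesis did not move as a group. Of 25 tested genes, 3 were higher and 2 lower in day-old liver, and the list's median was -0.06, a sign that turned with other scalings. FDPS, which makes farnesyl diphosphate, averaged 50.4 ± 6.39 against 11.2 ± 3.01 CPM (log2 difference 2.16, SE 0.27, adjusted p 0.00115), and SCAP, the escort of the SREBP transcription factors, 53.9 ± 11.3 against 12.5 ± 1.45 CPM (log2 difference 2.11, SE 0.25, adjusted p 0.000958). In the other direction, HMGCS1, an early synthase of the pathway, stood at 382, 337 and 74.5 CPM in the day-old pools and 1387, 2107 and 1766 in the adult livers (log2 difference -2.73, SE 0.55, adjusted p 0.00849). ACAT2, a thiolase that joins acetyl groups at the head of the pathway, averaged 78.8 ± 33.2 against 371 ± 17 CPM (log2 difference -2.24, SE 0.31, adjusted p 0.00182).

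Genes of fatty acid synthesis went in both directions. Among 23 tested genes of synthesis, desaturation and elongation, 8 were higher and 5 lower in day-old liver. Among the 20 that reached FPKM 1 at both ages, 7 were higher and 4 lower. ACLY, which supplies acetyl-CoA from citrate, stood at 139.6, 150.3 and 82.1 CPM in the day-old pools and 403, 407 and 401 in the adult livers (log2 difference -1.70, SE 0.27, adjusted p 0.00306). ELOVL6, which lengthens palmitate, averaged 13.5 ± 5.03 against 57.2 ± 6.2 CPM (log2 difference -2.08, SE 0.30, adjusted p 0.00219). THRSP, a lipogenic regulator of liver and fat, was at 2.96, 1.78 and 16.7 CPM in the day-old pools and 109, 48.1 and 74.6 in the adult livers. Each adult value lay above each day-old one (log2 difference -3.45, SE 0.81, adjusted p 0.0154), although the call was lost without day-old pool 1 (adjusted p 0.0511). The row named SCD, the desaturase that makes oleic acid, held 0 counts in the 3 pools and 19.3, 4.83 and 8.06 CPM in the adult livers, at least 471-fold lower in the row's counts with 3 counts assumed over the day-old group. Whether the table's gene model or reads shared between loci set this 0 was not tested. FASN, the fatty acid synthase itself, showed 349, 291 and 139.6 CPM in the day-old pools and 244, 169 and 197 in the adult livers. Its ranges overlapped and it was not called (adjusted p 0.466). The elongases of polyunsaturated fatty acids were higher in the chick: ELOVL5 averaged 169 ± 65.1 against 40.2 ± 12.3 CPM (log2 difference 2.08, SE 0.36, adjusted p 0.00482), and ELOVL2 was at 5.36, 15.9 and 13 CPM in the pools and at 0 counts in the adult FE livers, at least 169-fold higher. SREBF1, the transcription factor for lipogenesis, was at 15.5, 66.3 and 71.9 CPM in the day-old pools and 4.46, 8.21 and 11 in the adult livers (log2 difference 2.69, SE 0.58, adjusted p 0.0109). Its lowest pool still exceeded the highest adult liver.

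Lipases and lipoprotein genes changed in both directions, with 4 of 11 tested lipases and regulators higher and 2 lower in the chick. LPL and LIPC reached FPKM 1 in the pools alone, and of the other 9 members 2 were higher and 2 lower (median -0.83). LPL, the lipase that frees fatty acids from circulating lipoproteins, stood at 65.4, 51.2 and 72.2 CPM in the day-old pools and 3.03, 3.38 and 1.45 in the adult livers (log2 difference 4.59, SE 0.37, adjusted p 0.000301). LIPC, the hepatic lipase, was at 66.6, 61 and 47.1 CPM in the day-old pools and 4.9, 2.85 and 1.01 in the adult livers (log2 difference 4.34, SE 0.51, adjusted p 0.000974). Neither gene overlapped between the ages, and both were far higher in the chick. PNPLA2, the lipase that opens stored triglyceride, was lower in the chick, at 43.7, 18.6 and 28.8 CPM in the day-old pools and 109.7, 103 and 106 in the adult livers (log2 difference -1.81, SE 0.32, adjusted p 0.00472). The droplet protein CIDEC was also lower (39.4 ± 7.26 against 151 ± 70.2 CPM, log2 difference -1.94, adjusted p 0.00635). Its list of triglyceride assembly and lipid droplets had a median of 0.83. Another droplet protein, PLIN4, was higher in the chick (185 ± 66.1 against 31.6 ± 8.23 CPM, log2 difference 2.55, adjusted p 0.00132). Of 16 tested apolipoproteins and lipoprotein assembly genes, 9 were higher and 1 was lower (median 0.84). LCAT, which esterifies cholesterol in plasma lipoproteins, averaged 822 ± 61.2 against 175 ± 10.5 CPM (log2 difference 2.23, SE 0.21, adjusted p 0.000458). APOB, the structural protein of very low density lipoprotein, averaged 472 ± 159.8 against 180.2 ± 55.3 CPM (log2 difference 1.39, SE 0.33, adjusted p 0.0167), and its adjusted p rose to 0.0627 without adult liver 2 and to 0.0733 without adult liver 3. The member that was lower was APOA4, an apolipoprotein of intestine and liver, at 891, 737 and 814 CPM in the day-old pools and 10654, 2913 and 5522 in the adult livers (log2 difference -2.97, SE 0.46, adjusted p 0.00288). Its adult values spread widely, yet the lowest of them was above every pool.

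Nuclear genes of oxidative phosphorylation were higher in day-old liver as a group. Of 69 tested subunit genes, 45 were higher and none was lower. In 60 of the 69 all pools lay above all adult livers, as they did in 25.1% of all genes tested. The median was 0.97. Of the 45 calls, 44 remained without day-old pool 2, 40 without adult liver 1, 33 without adult liver 2 and 30 without adult liver 3. The summed level ran from 15699 to 19046 CPM in the pools and from 8430 to 8926 CPM in the adults. NDUFB5 of complex I stood at 226, 225 and 178 CPM in the day-old pools and 41.1, 41 and 40 in the adult livers (log2 difference 2.36, SE 0.21, adjusted p 0.000421), and UQCRH of complex III averaged 422 ± 34.2 against 98.9 ± 4.54 CPM (log2 difference 2.09, SE 0.20, adjusted p 0.000516). Of 24 tested genes carried by the mitochondrial DNA, which include its rRNA and transfer RNA genes, 8 were lower and none higher (median -1.54). How many of the 24 encode respiratory chain proteins was not established, so they are not a counterpart of the nuclear subunit genes. The share of these 24 genes in all counts was 5.06%, 2.02% and 7.34% in the pools and 6.54%, 6.30% and 8.28% in the adults, and these shares overlapped (exact permutation test, two-sided, p = 0.3). Most of the share was mitochondrial rRNA, at 4.46%, 1.73% and 6.38% of counts in the pools and 5.64%, 5.50% and 7.07% in the adults. All counts include the nuclear rRNA, which differed between the ages, so the overlap does not show equal levels. Mitochondrial beta oxidation had 5 of 16 genes higher and none lower, and a median of 0.06. ACAD9, an acyl-CoA dehydrogenase also needed to build complex I, averaged 268 ± 39.7 against 133 ± 0.882 CPM (log2 difference 1.01, SE 0.21, adjusted p 0.00927). PPARA, the receptor that turns on fatty acid oxidation, had overlapping values of 23.2, 9.43 and 36.1 CPM in the day-old pools and 91.5, 36.7 and 27.6 in the adult livers and was not called (adjusted p 0.149). Among 15 genes of ketone bodies and fasting, 1 was higher and 4 were lower in the chick. SLC16A1, a carrier of lactate and ketone bodies, was higher in the chick at 121 ± 33 against 11.5 ± 4.79 CPM (log2 difference 3.39, SE 0.38, adjusted p 0.000891).

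Carbohydrate genes differed at single steps. PCK1, the cytosolic enzyme that commits carbon to glucose, stood at 0.49, 8.9 and 1.23 CPM in the day-old pools and 162, 112 and 142 in the adult livers. The day-old values were thus a small fraction of the adult ones (log2 difference -5.26, SE 0.97, adjusted p 0.00602). PCK2, the mitochondrial form of the enzyme, overlapped between the ages at 92.2 ± 23.2 against 103 ± 8.17 CPM. It was not called (log2 difference -0.16, adjusted p 0.665) and is named after its values were seen. UGP2, which makes the UDP-glucose used for glycogen, was at 237, 258 and 181 CPM in the day-old pools and 2201, 1298 and 1612 in the adult livers (log2 difference -2.92, SE 0.29, adjusted p 0.000581). SIK1, as the table names it, a kinase induced by fasting signals in mammals, was lower in day-old liver as well, at 4.23 ± 1.37 against 141 ± 89.3 CPM (log2 difference -5.06, SE 0.57, adjusted p 0.000891). SLC37A4, which carries glucose 6-phosphate into the endoplasmic reticulum, was higher in the chick at 234 ± 56.6 against 42.2 ± 6.77 CPM (log2 difference 2.47, SE 0.27, adjusted p 0.00075), and so was the glucose carrier SLC2A2 at 23.5 ± 4.24 against 5.04 ± 2.53 CPM (log2 difference 2.23, SE 0.39, adjusted p 0.00491). In the lists, 5 of 21 genes of glycogen and gluconeogenesis were higher and 3 lower, and 5 of 18 glycolytic genes were higher and 3 lower. The subunits of lactate dehydrogenase went opposite ways: LDHA averaged 88.7 ± 27.6 against 249 ± 26.3 CPM (log2 difference -1.49, SE 0.27, adjusted p 0.00526) and LDHB 1097 ± 339.7 against 343 ± 20.7 CPM (log2 difference 1.68, SE 0.27, adjusted p 0.00332). PGAM1, a late glycolytic enzyme, was higher in the chick at 1309.8 ± 489 against 365 ± 12.5 CPM (log2 difference 1.84, SE 0.29, adjusted p 0.00319).

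The folate cycle is the pathway closest to the diet. Of its 17 tested genes, 5 were higher and none was lower in day-old liver, with a median of 0.66. Of the 16 that reached FPKM 1 at both ages, 4 were higher (median 0.60). SLC19A1, the reduced folate carrier that brings folate into cells, stood at 95.5, 82.7 and 122 CPM in the day-old pools and 12.4, 12.5 and 8.69 in the adult livers (log2 difference 3.16, SE 0.27, adjusted p 0.000378). TYMS, the thymidylate synthase that uses folate for DNA synthesis, was at 23.3, 21.3 and 9.37 CPM in the day-old pools and 2.05, 2.62 and 1.57 in the adult livers (log2 difference 3.11, SE 0.45, adjusted p 0.00215). Pools and adult livers did not overlap for either gene. FPGS, which adds glutamates to folate and so keeps it in the cell, averaged 114 ± 22.9 against 53.5 ± 4.18 CPM (log2 difference 1.09, SE 0.23, adjusted p 0.00975), and its adjusted p rose to 0.056 without adult liver 3. SHMT1, which moves a 1-carbon unit from serine to folate, was not called, with 2714, 1488 and 773 CPM in the day-old pools and 906, 512 and 640.3 in the adult livers (adjusted p 0.0617). Its values overlapped between the ages.

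Methyl group metabolism was mixed. In the list of methionine, choline and transsulfuration genes, 5 of 24 were higher and 4 lower in the chick. Over all genes tested, 14.7% were higher and 12.8% lower. GATM, which makes the precursor of creatine and so feeds a large consumer of methyl groups, stood at 406, 386 and 256 CPM in the day-old pools and 21.3, 27.8 and 18.8 in the adult livers (log2 difference 3.95, SE 0.29, adjusted p 0.000256). All pools exceeded all adult livers by a wide margin. CBS, the first step from homocysteine to cysteine, averaged 45.8 ± 22.3 against 183 ± 36.9 CPM (log2 difference -1.998, adjusted p 0.00728), and AHCY, which clears S-adenosylhomocysteine, 616 ± 108 against 1284 ± 41.1 CPM (log2 difference -1.06, SE 0.22, adjusted p 0.00993). BHMT, which remethylates homocysteine with betaine, had 1204 ± 749.7 against 541 ± 29.6 CPM (adjusted p 0.0596), and MAT1A, which makes S-adenosylmethionine in liver, 582 ± 279 against 1291 ± 417 CPM (adjusted p 0.0599). Neither passed the test. In serine and glycine metabolism 3 of 13 genes were higher and 2 lower. PSPH, the last enzyme of serine synthesis, averaged 1160.3 ± 693 against 7408 ± 1292 CPM (log2 difference -2.67, SE 0.43, adjusted p 0.00338), and GLDC of glycine cleavage 279 ± 95.4 against 88.8 ± 28.1 CPM (log2 difference 1.65, SE 0.35, adjusted p 0.00987). Purine synthesis and uric acid formation had 2 of 17 genes higher and 3 lower. ATIC, which closes the purine ring with a folate unit, stood at 2409.6, 1474 and 1506 CPM in the day-old pools and 4480.2, 4992 and 4850.1 in the adult livers (log2 difference -1.41, SE 0.28, adjusted p 0.00747). XDH, which makes uric acid, averaged 103 ± 70.7 against 316 ± 28.9 CPM (log2 difference -1.62, SE 0.45, adjusted p 0.0286), but its adjusted p ranged up to 0.0902 when adult liver 1, 2 or 3 or day-old pool 1 was left out. Of 11 tested DNA methylation enzymes 3 were higher and none was lower. One of the 3 was UHRF1, which brings the maintenance methyltransferase to replicating DNA. It averaged 14 ± 9.2 against 2.32 ± 0.242 CPM (log2 difference 2.59, SE 0.58, adjusted p 0.0126). UHRF1 reached FPKM 1 in the pools alone, and of the other 10 members 2 were higher. DNMT3A, a methyltransferase that sets new marks, averaged 149 ± 42.7 against 71.3 ± 9.16 CPM (log2 difference 1.06, SE 0.26, adjusted p 0.018), with 0.0709 and 0.0629 as its adjusted p without adult liver 2 and without adult liver 3. Amino acid breakdown had 6 of 33 genes higher and 9 lower. GPT2, the mitochondrial alanine aminotransferase, was lower in the chick at 410.4, 143 and 168 CPM in the day-old pools and 1248, 1315 and 1268 in the adult livers (log2 difference -2.41, SE 0.41, adjusted p 0.00406).

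Secreted liver proteins were more often higher than lower in the chick. Of 39 tested plasma proteins and clotting factors, 14 were higher and 4 lower (median 0.70), beside 14.7% and 12.8% of all genes. AHSG, fetuin-A, a serum glycoprotein that keeps calcium in solution, stood at 3871, 5233 and 2589 CPM in the day-old pools and 348, 247 and 270.4 in the adult livers (log2 difference 3.76, SE 0.34, adjusted p 0.000421). Its relative FETUB averaged 436 ± 104 against 36.1 ± 25.2 CPM (log2 difference 3.60, SE 0.49, adjusted p 0.00176), and SERPINC1, antithrombin, 724 ± 242 against 168 ± 4.04 CPM (log2 difference 2.11, SE 0.29, adjusted p 0.00176). HPX, which binds free haem, went the other way at 3701, 5102 and 2179 CPM in the day-old pools and 36049, 22191 and 27071 in the adult livers (log2 difference -2.96, SE 0.40, adjusted p 0.00173). The copper carrier CP was also lower, at 29.7 ± 11.7 against 268 ± 10.2 CPM (log2 difference -3.17, SE 0.31, adjusted p 0.00054). Complement had 2 of 20 genes higher and 5 lower, but without adult liver 3 none was higher and 3 were lower, and without adult liver 2 or day-old pool 1 none was higher and 4 were lower. The lower ones included C4A of the classical pathway at 22.5, 21.3 and 6.92 CPM in the day-old pools and 447, 468 and 437 in the adult livers (log2 difference -4.73, SE 0.46, adjusted p 0.000531) and C7 of the membrane attack complex at 12.4 ± 6.69 against 81 ± 22 CPM (log2 difference -2.71, SE 0.41, adjusted p 0.00258). Adult and day-old values of C4A were far apart in all libraries. A separate row named C4, on chromosome 16, overlapped between the ages at 480 ± 193 against 803 ± 98.8 CPM. It was not called (log2 difference -0.74, adjusted p 0.1) and is named after its values were seen. Of 24 tested antioxidant enzymes, 7 were higher and 3 lower in the chick. A lower one was GPX3, the secreted glutathione peroxidase, at 561 ± 66.8 against 3430.4 ± 24.3 CPM (log2 difference -2.61, SE 0.23, adjusted p 0.0004). HMOX1, which breaks haem down, stood at 40.1, 41.3 and 39.5 CPM in the day-old pools and 442, 387 and 384 in the adult livers (log2 difference -3.33, SE 0.21, adjusted p 0.000236). GPX3 and HMOX1 had very even values within each age.

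Enzymes that clear foreign and endogenous compounds changed in both directions. Of 43 tested cytochrome P450 and conjugation genes, 17 were higher and 10 lower in day-old liver. Among the 40 that reached FPKM 1 at both ages, 14 were higher and 10 lower. UGT1A1, which conjugates bilirubin in mammals, averaged 439 ± 38 against 77.8 ± 22.1 CPM (log2 difference 2.50, SE 0.27, adjusted p 0.000756). CYP1A1, an oxidase whose reads may be shared with a close paralog, averaged 55.8 ± 30.6 against 4.44 ± 0.393 CPM (log2 difference 3.65, SE 0.42, adjusted p 0.000923). GSTA4L, a glutathione transferase, stood at 3.79, 5.72 and 5.23 CPM in the day-old pools and 47.8, 82.6 and 86.6 in the adult livers (log2 difference -3.88, SE 0.33, adjusted p 0.000359). Among 26 tested hepatocyte transcription factors 1 was higher and 6 were lower (median -0.64, but 0.22 with limma on log2(FPKM + 1)). Among the lower ones was NR1H3, the liver X receptor that senses oxysterols, at 27.8, 40.5 and 29.6 CPM in the day-old pools and 148, 195 and 161 in the adult livers (log2 difference -2.36, SE 0.25, adjusted p 0.000676). EPAS1, an oxygen-sensing transcription factor outside that list, averaged 107 ± 32 against 835 ± 202 CPM (log2 difference -2.97, SE 0.31, adjusted p 0.000676). CAMK1D, a calmodulin-dependent kinase, was at 19.4, 10.7 and 32.2 CPM in the day-old pools and 1034, 812 and 1067 in the adult livers (log2 difference -5.55, SE 0.45, adjusted p 0.000306). CAMK1D was therefore high in all 3 adult FE livers and low in all 3 pools. GIF, gastric intrinsic factor, which binds vitamin B12, was likewise lower in day-old liver at 14.6, 8.74 and 21.4 CPM in the day-old pools and 764, 640.3 and 647 in the adult livers (log2 difference -5.52, SE 0.38, adjusted p 0.000256). RBP, the riboflavin-binding protein that hens load into eggs, was the single tested gene of the yolk precursor list, at 0.872 ± 0.246 against 17.5 ± 6.53 CPM (log2 difference -4.33, SE 0.43, adjusted p 0.00061). RBP reached FPKM 1 in the adult livers alone. The list's other members found in the table did not pass the filter and held 0 counts in every adult FE liver.

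Genes of protein folding in the secretory pathway were more often higher than lower in the chick, with 14 of 31 higher and 2 lower and a median of 0.79. P4HB, a protein disulfide isomerase, stood at 916, 746 and 482 CPM in the day-old pools and 117, 80.3 and 96.3 in the adult livers (log2 difference 2.87, SE 0.30, adjusted p 0.000697), and PDIA3, another one, averaged 623 ± 162 against 137 ± 15.8 CPM (log2 difference 2.19, SE 0.27, adjusted p 0.0011). DDIT3, the transcription factor of the prolonged stress response, was one of the 2 that were lower, at 4.42 ± 0.856 against 14.2 ± 1.57 CPM (log2 difference -1.69, SE 0.31, adjusted p 0.00616). Cytosolic heat shock proteins and chaperones were mixed, with 6 of 35 higher and 8 lower. The row named HSPA2, an HSP70 family gene whose reads may be shared with close relatives, held 4.61, 6.76 and 15.9 CPM in the day-old pools and 205, 752 and 539 in the adult livers (log2 difference -5.79, SE 0.67, adjusted p 0.000938). HSPB9, a small heat shock protein, averaged 6.72 ± 2.01 against 185 ± 58.6 CPM (log2 difference -4.79, SE 0.36, adjusted p 0.000256), and HSP90AB1, a cytosolic chaperone, went the other way at 47.9 ± 28.8 against 6.02 ± 1.82 CPM (log2 difference 2.98, SE 0.48, adjusted p 0.00346). The adult levels of HSPA2 and HSPB9 varied among birds, with adult liver 2 the highest for both. Of 19 clock genes 2 were higher and 4 lower. Among the 18 that reached FPKM 1 at both ages, 1 was higher and 4 were lower. PER2, a repressor of the clock, averaged 8.85 ± 1.99 against 24.1 ± 4.11 CPM (log2 difference -1.44, SE 0.29, adjusted p 0.00789). TIMELESS, which in vertebrates acts at replication forks, stood at 6.57, 7.19 and 6.45 CPM in the day-old pools and 0, 0.408 and 0 in the adult livers (log2 difference 5.45, SE 0.99, adjusted p 0.00554). Cytosolic ribosomal proteins had 13 of 74 higher and none lower (median 0.34), beside 14.7% and 12.8% of all genes. Leaving out adult liver 1 reduced the 13 to 5.

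Immune genes were lower in the chick as groups. The MHC and antigen presentation list had 14 of 15 tested members lower in day-old liver and none higher, with a median of -3.03. Its summed level was 277 to 354 CPM in the pools and 2134 to 3056 CPM in the adult livers. Class II genes BLB1 and BLB2, which present peptides to helper T cells, stood far apart between the ages: BLB1 held 5.08, 13.5 and 9.73 CPM in the day-old pools and 294, 266 and 278 in the adult livers (log2 difference -4.89, SE 0.39, adjusted p 0.000282). BLB2 averaged 13.6 ± 4.74 against 351 ± 111 CPM, and BF1, a class I gene, 18.9 ± 2.66 against 276 ± 71.6 CPM (log2 differences -4.69 and -3.87, adjusted p 0.000282 and 0.000256). Because the MHC genes have near-identical copies, the split of reads among them is uncertain. Interferon response genes were lower in 17 of 27 cases and higher in none (median -1.45). Of the 24 that reached FPKM 1 at both ages, 14 were lower (median -1.38). OASL, of the interferon-induced oligoadenylate synthetase family, stood at 1.88, 6.35 and 5.3 CPM in the day-old pools and 83.4, 64.9 and 64 in the adult livers (log2 difference -3.97, SE 0.45, adjusted p 0.000891). IFI6, an antiviral gene, and GBP4L, a guanylate-binding protein, averaged 2.64 ± 1.83 against 57 ± 6.87 CPM and 26.8 ± 4.59 against 165 ± 32.5 CPM (log2 differences -4.41 and -2.62, adjusted p 0.000958 and 0.000516).

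Markers of immune cells went the same way. Of 16 macrophage markers 14 were lower in day-old liver, and their sum was 129 to 387 CPM in the pools and 1160 to 1193 CPM in the adults. C1QC, part of the complement recognition protein made by macrophages, stood at 18.8, 44.2 and 22.2 CPM in the day-old pools and 221, 252 and 254 in the adult livers (log2 difference -3.09, SE 0.35, adjusted p 0.000918), and its partner C1QA averaged 29.6 ± 13.8 against 129.7 ± 3.44 CPM (log2 difference -2.13, SE 0.34, adjusted p 0.00327). MARCO, a scavenger receptor, was at 3.01, 18 and 8.4 CPM in the day-old pools and 112, 106 and 103 in the adult livers (log2 difference -3.44, SE 0.57, adjusted p 0.00376), and SPI1, the transcription factor of myeloid cells, averaged 5.43 ± 2.3 against 72.5 ± 18.1 CPM (log2 difference -3.74, SE 0.40, adjusted p 0.00075). Day-old pool 2, the pool with W counts, had the highest C1QC and MARCO of the 3 pools, but it too lay below every adult liver. Among the markers that were not called was MRC1, the mannose receptor, at 33.7 ± 24.4 against 10.7 ± 3.99 CPM (adjusted p 0.057), named after its values were seen. T and NK cell markers were lower in 8 of 12 cases and higher in none (median -4.91), with sums of 41.4 to 62.8 CPM in the pools and 467 to 577 CPM in the adults. Of the 8, 6 reached FPKM 1 in the adult livers alone, and of the other 6 members tested 2 were lower. CD3D, a chain of the T cell receptor complex, stood at 0.825, 0.813 and 1.62 CPM in the day-old pools and 31, 38.4 and 35.4 in the adult livers (log2 difference -5.03, SE 0.37, adjusted p 0.000256). CD8A, the co-receptor of cytotoxic T cells, had 0 counts in the pools and 5.53, 4.83 and 10.7 CPM in the adults, at least 308-fold lower in the chick with 3 counts assumed over the pools. GNLY, a granule protein that kills microbes, was at 4.2, 3.05 and 2.27 CPM in the day-old pools and 429, 285 and 338 in the adult livers (log2 difference -6.78, SE 0.36, adjusted p 8.69e-05). Without day-old pool 2, the members called lower were 13 for MHC, 15 for macrophage and 8 for T and NK cell markers, and without adult liver 1 they were 14, 13 and 8. Of the 14 macrophage calls 10 remained without adult liver 2 and 10 without adult liver 3. Among general leukocyte markers 8 of 12 were lower and none higher. RAC2, a small GTPase of blood cells, averaged 7.85 ± 3.11 against 67.7 ± 2.72 CPM (log2 difference -3.10, SE 0.32, adjusted p 0.000643), and PTPRC, the CD45 phosphatase of all white cells, 1.47 ± 0.518 against 24.3 ± 9.97 CPM (log2 difference -4.04, SE 0.46, adjusted p 0.000931).

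The antibody genes IGLL1 and JCHAIN and the carrier PIGR were almost absent from day-old liver. IGLL1 and JCHAIN reached FPKM 1 in the adult livers alone. IGLL1, the row of the immunoglobulin light chain, held 0, 0.429 and 0 CPM in the day-old pools and 77.8, 65.3 and 69.5 in the adult livers (log2 difference -8.58, SE 0.95, adjusted p 0.000822). JCHAIN, which joins antibodies into polymers, stood at 0.155, 0 and 0 CPM in the day-old pools and 9.45, 19 and 10.8 in the adult livers (log2 difference -7.96, SE 1.02, adjusted p 0.00139). PIGR, the receptor that carries polymeric antibody across epithelium and in birds into bile, was at 1.06, 0.123 and 1.05 CPM in the day-old pools and 300.5, 251 and 264 in the adult livers (log2 difference -8.58, SE 0.75, adjusted p 0.0004). Its row (gene ID 419848; chromosome 26, 2579979 to 2590723, minus strand in the table) had the most negative difference among named genes with counts in both groups. CHIA, an acidic chitinase, had the smallest adjusted p of the genes named, with 4.2, 3.83 and 2.85 CPM in the day-old pools and 264, 274 and 245 in the adult livers (log2 difference -6.16, SE 0.27, adjusted p 6.29e-05). The values of each age spanned a narrow range, far from those of the other age. MAP3K7CL and MYO7L2, also among the 10 largest differences towards the adult, averaged 0.331 ± 0.343 against 21.4 ± 7.34 CPM and 0.931 ± 0.887 against 39.3 ± 7.18 CPM (adjusted p 0.0042 and 0.00105).

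**Figure D3:**
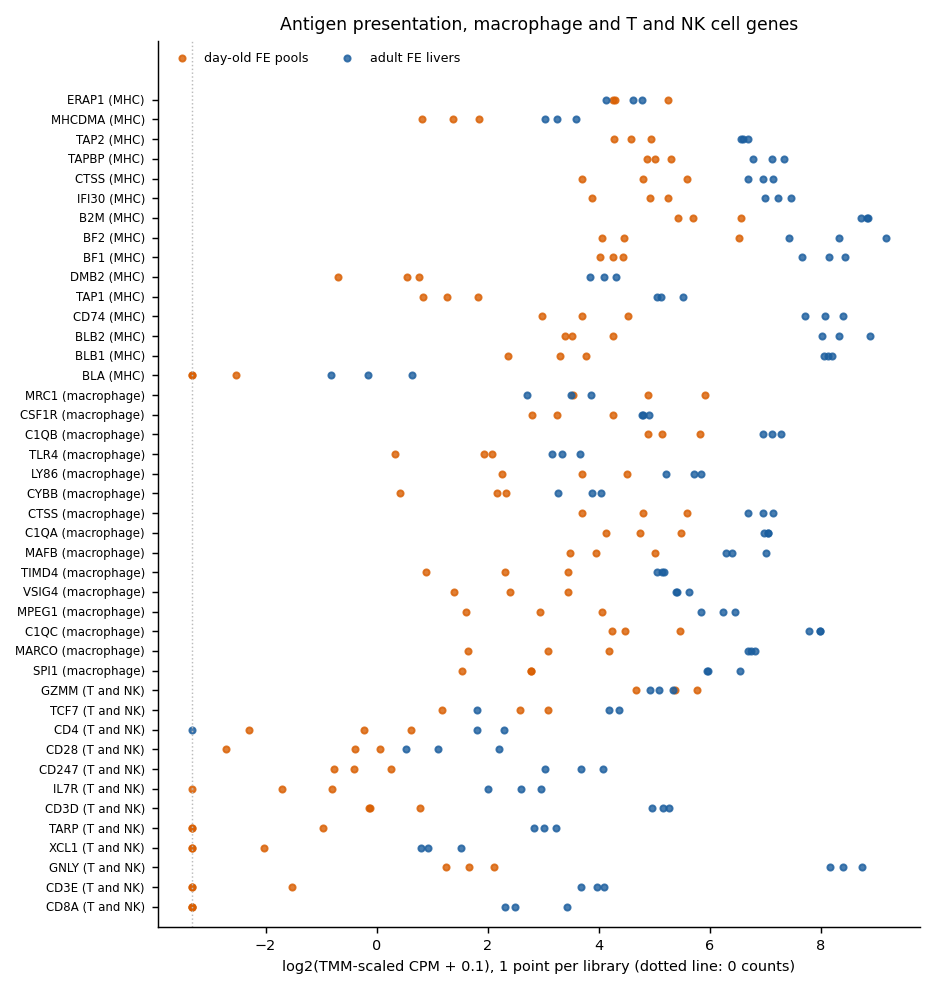
Levels of 15 antigen presentation, 15 macrophage and 12 T and NK cell genes in each FE library, as log2(TMM-scaled CPM + 0.1), with the list in brackets. Orange day-old points lie to the left of blue adult points for 14 of the MHC, 14 of the macrophage and 9 of the T and NK cell genes, and the dotted line marks 0 counts.

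Stromal markers moved in both directions. Among 22 stellate and fibroblast markers 4 were higher and 5 lower in the chick, and without adult liver 3 these counts were 3 and 1. COL1A1, the main chain of fibrillar collagen, stood at 287, 224 and 295 CPM in the day-old pools and 67.9, 66.2 and 71.4 in the adult livers (log2 difference 1.97, SE 0.21, adjusted p 0.000755), and ELN, elastin, averaged 65.6 ± 5.93 against 10.8 ± 1.51 CPM (log2 difference 2.60, SE 0.23, adjusted p 0.0004). The 5 lower members were matrix proteins of connective tissue: DCN (log2 difference -1.44), DPT (-1.15), SPARC (-1.13), COL14A1 (-1.08) and FBLN1 (-1.05), all named after their values were seen. Each of the 5 lost its call when at least 1 library was left out, with an adjusted p of up to 0.0978. Smooth muscle markers were lower in 6 of 14 cases and higher in none (median -0.90, but 0.01 with limma on log2(FPKM + 1)). CNN1, a calponin of contractile cells, averaged 2.13 ± 1.06 against 19.1 ± 4.58 CPM (log2 difference -3.17, SE 0.48, adjusted p 0.00263), and DES, the intermediate filament of muscle, 45 ± 5.46 against 128 ± 35.8 CPM (log2 difference -1.51, SE 0.26, adjusted p 0.00455). Of 17 endothelial markers 1 was higher and 3 were lower, but the higher one reached FPKM 1 in the pools alone. Of the other 16, none was higher and 3 were lower. The higher one was STAB2, a scavenger receptor of sinusoids, at 20.1, 69 and 51.4 CPM in the day-old pools and 8.65, 7.51 and 6.36 in the adult livers (log2 difference 2.64, SE 0.44, adjusted p 0.00378). Cholangiocyte markers had 2 of 12 higher and 4 lower, including the bile duct keratin KRT19 at 6.93 ± 0.929 against 18.5 ± 5.04 CPM (log2 difference -1.41, SE 0.31, adjusted p 0.0119). The summed levels of the endothelial list overlapped between the ages, at 302 to 616 CPM in the pools and 467 to 603 CPM in the adults. By chromosome, 34 of 411 tested Z genes were higher and 57 lower in day-old liver (median -0.10), against 1401 and 1186 of 9352 autosomal genes (median 0.05). The mean Z level relative to the autosomes was lowest in day-old pool 2, at -0.54 on the log2 scale beside -0.07 and -0.19 in the other pools.

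The age difference was then set against that of the FCON diet, in which the 3 libraries labelled as adult roosters held 1015 to 1117 CPM of W chromosome genes, against at most 2.07 CPM in the adult FE livers. Nuclear rRNA took 3.02% to 8.75% of the counts in those libraries, 32.8% to 60.5% in the adult FE livers and 16.4% to 29.1% in the FCON pools. The rRNA share was thus higher in the adults than in the pools under FE and lower under FCON. Its part in the differences between diets was not tested. Diet and these differences between the adult libraries cannot be told apart. A gene's age difference under FE minus that under FCON was called for 2054 of 11002 genes tested (18.7%), higher for 1125 (10.2%) and lower for 929 (8.44%). Leaving out any 1 of the libraries labelled adult FCON reduced the calls to between 1252 and 1261. The labels name these 3 as separate roosters, but their values lay closer together than those of any other liver group. Over genes with at least 2000 counts in a pair of libraries, the robust SD of the log2 ratio was at most 0.107 between them, against 0.224 to 0.441 between adult FE livers, 0.478 to 0.596 between day-old FE pools and 0.486 to 0.798 between day-old FCON pools. They still differed beyond counting error in 45.3% to 47.0% of genes, which does not tell separate birds from repeat preparations of 1 RNA. With their mean counted as 1 sample, which is then assumed to vary like the other groups, the difference between the diets was called for 281 genes (2.55%), 188 higher (1.71%) and 93 lower (0.845%), each of them among the 2054. Counts for the FCON diet and for the difference between diets below therefore hold only if the 3 libraries are separate birds. Counts with them as 1 sample are set beside list counts for the difference between diets, but beside only some of those for the FCON diet. An FCON count without one is under the same limit. Under FCON alone, 3037 of 10339 genes differed with age (29.4%), and 19 did with those libraries as 1 sample (0.184%), 1 higher and 18 lower in day-old liver. Among 9492 genes tested under both diets, 2556 differed with age under FE and 2800 under FCON. In 858 genes the call was shared in the same direction, 33.6% of the FE calls and 30.6% of the FCON calls, and in 194 it was opposite. These comparisons share no library.

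Many cell cycle, respiratory chain and antigen presentation genes were called in the same direction under both diets. Of 44 cell cycle genes tested under both, 43 were called under FE and 40 under FCON, 39 of them the same genes in the same direction and 1 opposite. Of 69 oxidative phosphorylation genes, 45 and 46 were called, 36 of them the same genes in the same direction. Of 15 MHC genes, 14 and 10 were called, and 10 were shared. Of 27 interferon genes, 17 and 22 were called, and 16 were shared. With the libraries labelled adult FCON as 1 sample, the FCON calls fell to 0 in the cell cycle, oxidative phosphorylation and MHC lists and to 3 in the interferon list. For 23 of 53 cell cycle genes the FE age difference was larger than the FCON one and for none was it smaller (5 and 0 as 1 sample), as for RRM2 (difference 2.91, SE 0.60, adjusted p 0.00672, but adjusted p 0.0694 as 1 sample). Macrophage markers had 14 of 16 lower under FE and 2 of 15 lower and 2 higher under FCON, and the difference was called for 5 of 16 (2 as 1 sample), among them C1QC (-2.35, SE 0.52, adjusted p 0.0103), MARCO (-3.26, SE 0.64, adjusted p 0.00548) and SPI1 (-3.59, SE 0.48, adjusted p 0.000708). Of these, SPI1 stayed called as 1 sample (adjusted p 0.0304), and C1QC and MARCO did not (0.128 and 0.0933). In the libraries labelled adult FCON these 3 averaged 76 ± 2.25, 13.6 ± 0.764 and 14.1 ± 2.07 CPM.

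Genes of lipid metabolism and secreted proteins were among those whose age difference differed between the diets. Under FCON no gene of cholesterol synthesis was higher in the chick and 19 of 28 were lower, and the difference between the diets was called higher for 17 of 28 and lower for 1 (10 and 0 as 1 sample). FDPS averaged 47.5 ± 6.29 in the FCON pools and 174 ± 2.46 CPM in the libraries labelled adult FCON, so its age difference was -1.86 there and 2.16 under FE (difference 4.06, SE 0.31, adjusted p 4.34e-05). CYP7A1 averaged 5.79 ± 3.13 and 91.5 ± 2.05 CPM under FCON. It was lower in the chick there (adjusted p 0.00198, but 0.0506 as 1 sample) and higher under FE (difference 8.77, SE 1.01, adjusted p 0.000396). CYP8B1 averaged 242 ± 113 and 375 ± 2.05 CPM under FCON (difference 6.35, SE 0.64, adjusted p 0.000188), and LIPC 45.7 ± 18 and 42.4 ± 2.6 CPM (difference 4.25, SE 0.63, adjusted p 0.0013). For both, the day-old means of the diets lay closer together than the adult means, and the FE adults were far below the libraries labelled adult FCON. FABP1 repeated this order with 1628 ± 532 and 464 ± 0.62 CPM under FCON, where it was still higher in the chick (log2 difference 1.82, adjusted p 0.00438, but 0.306 as 1 sample; difference between diets 7.57, SE 0.69, adjusted p 9.62e-05). The difference between diets stayed called as 1 sample for FDPS, CYP7A1, CYP8B1, LIPC and FABP1. Of 40 plasma protein and clotting genes, 1 was higher and 18 were lower in the chick under FCON, and the difference between diets was called higher for 22 and lower for 2 (9 and 0 as 1 sample).

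For other genes the difference between the diets was negative. CAMK1D was higher in the chick under FCON, at 36.7 ± 15.7 and 11.5 ± 0.566 CPM (adjusted p 0.0109, but 0.359 as 1 sample), and lower under FE (difference -7.20, SE 0.58, adjusted p 4.34e-05). EPAS1 averaged 248 ± 177 and 50.3 ± 3.59 CPM under FCON (adjusted p 0.0161, but 0.357 as 1 sample; difference -5.25, SE 0.61, adjusted p 0.00043). UGP2 averaged 298 ± 178 and 161 ± 4.28 CPM and was not called under FCON (adjusted p 0.124; difference -3.79, SE 0.50, adjusted p 0.000684). For all 3 genes the difference between diets stayed called as 1 sample, and the adult FE livers had the highest mean of the 4 groups. Heat shock proteins and chaperones had 14 of 35 members higher and 1 lower in the chick under FCON, with the difference between diets called lower for 12 and higher for none (1 and 0 as 1 sample). Ribosomal proteins had 65 of 75 higher under FCON and 13 of 74 under FE (difference lower for 19 of 75), but as 1 sample none was called under FCON or for the difference. The difference between the diets was not called for GATM, with 507 ± 429 and 41.4 ± 1.37 CPM under FCON (difference 0.35, SE 0.72, adjusted p 0.773), or for GSTA4L (difference -0.11, SE 0.38, adjusted p 0.871). A difference that was not called is not shown to be equal under the diets.

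**Figure D4:**
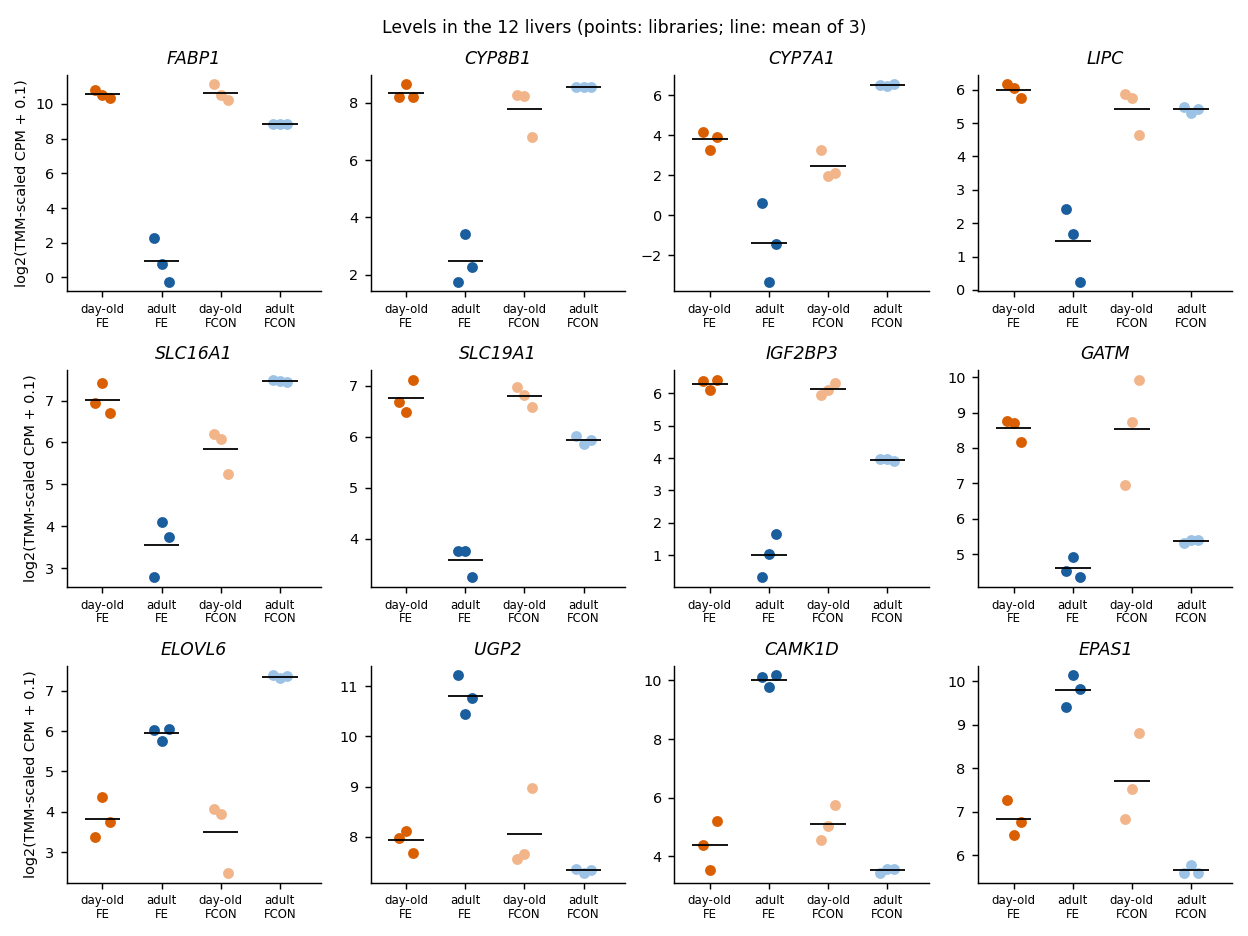
Levels of 12 genes in the 12 livers as log2(TMM-scaled CPM + 0.1), with 1 point per library and a line at the mean of each group of 3. In FABP1, CYP8B1, CYP7A1 and LIPC the adult FE livers are the lowest group, and in UGP2, CAMK1D and EPAS1 they are the highest.

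**Figure D5:**
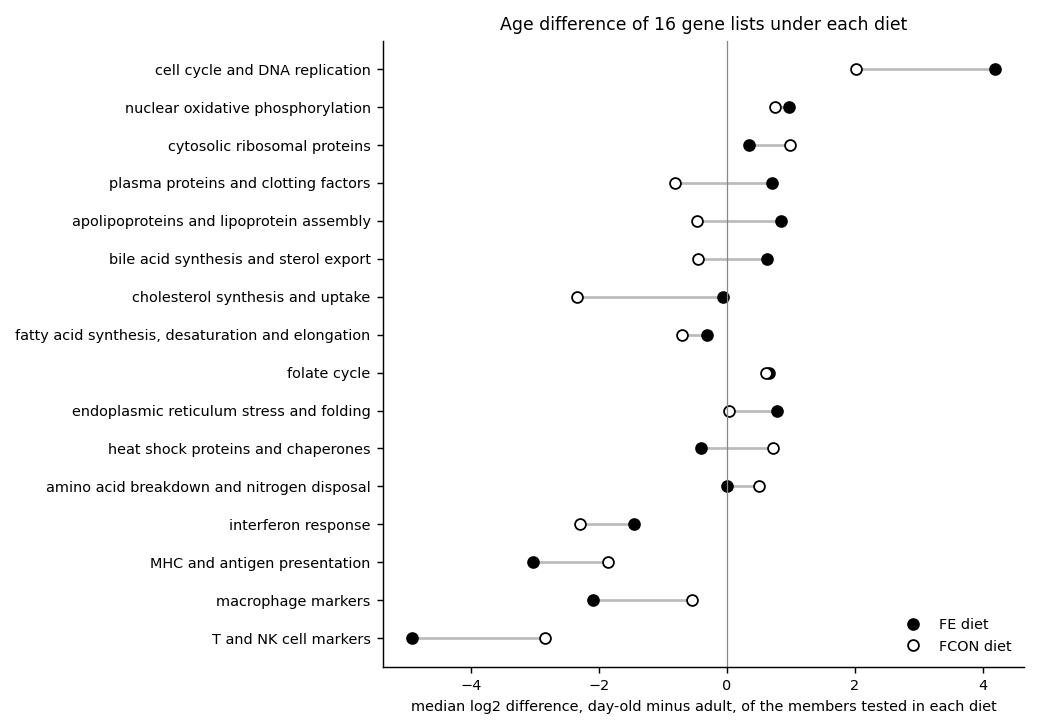
Median log2 age difference (day-old minus adult) of 16 gene lists under FE (filled) and FCON (open), over the members tested in each diet. Cell cycle genes lie at 4.19 and 2.02, cholesterol synthesis at -0.06 and -2.34, and T and NK cell markers at -4.91 and -2.84.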

How the data were processed

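The deposited table holds, for each of 18 libraries, estimated counts as whole numbers and FPKM that the authors computed per gene. Per the labels' protocols, RNA caught on oligo(dT) beads was fragmented, primed with random hexamers and read as paired ends; strand is not mentioned, and values of overlapping genes and of near-identical copies (IGLL1, CYP1A1, HSPA2, the MHC genes) are uncertain. The submitters' processing notes name cutadapt, HISAT2 and StringTie; no version is listed, and the genome build is not given in the sources used here. FPKM was relative to each library's total, in which 37 nuclear rRNA genes took 4.70% to 60.5% of the counts of the 6 libraries, so the estimated counts were tested.

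edgeR 4.0.16 in R 4.3.3 (TMM scaling, glmQLFit, glmQLFTest) compared the 3 day-old with the 3 adult FE livers, fitted over the 6 libraries, and, over 12 livers, the FE age difference minus the FCON one. Genes reaching FPKM 1 in 3 or more of the fitted libraries were tested, and a gene was called at a Benjamini-Hochberg adjusted p below 0.05 over all genes tested. Log2 differences are day-old minus adult; levels are TMM-scaled CPM, mean ± SD of 3 libraries. Where a group held 0 counts, the fold is a bound with 3 counts assumed over that group. Alternatives used limma 3.58.1, DESeq2 1.42.0, other scalings and filters, left-out libraries and, chosen after seeing the data, the libraries labelled adult FCON counted as 1 sample by their rounded mean count. The fitting was tested on simulated counts with 100 genes changed 2-fold and 100 changed 4-fold. It called 10% of the former and 73% of the latter in the right direction, with 4 false calls. The changed genes were a far smaller part of the 9847 simulated than the 27.4% called in the real comparison. The Benjamini-Hochberg cut is stricter when fewer genes change, so these percentages are not the detection rates of the real comparison. A gene that was not called may still differ by 2-fold.

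Members and gene lists were chosen with earlier results of these data known. Genes were named by a rule: the 10 largest called differences in each direction with a symbol, at least 20 CPM and no overlap between groups, the called members of each list with the 3 smallest p in each direction, and a panel of metabolic and immune genes; of these the text gives those its paragraphs are about, and some are not reported here. List symbols matched in the table for 1005 names, through the symbol of a RefSeq gene table for 15, and not for 120. List medians keep their value with genes at 0 counts set to their bound. No promoter or other sequence was used here.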

Additional observations from a re-analysis of the deposited data

Results flagged for a closer look

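For 79 of the 132 genes named, the age difference under FE differed from that under FCON in edgeR's test of the difference itself, with adjusted p from 4.34e-05 to 0.0439. It differed for 18.7% of all genes tested and for 1085 of the 2700 genes called under FE. Many named genes were picked by their FE difference or its p, and the FE libraries enter this test too. The count of 79 is therefore partly set by that choice. C4 and PCK2 are not counted among the 132. Values below are the log2 age difference under FE minus that under FCON, which was positive for 49 genes and negative for 30. The adult libraries labelled FCON hold W chromosome counts and a lower share of nuclear rRNA than the adult FE livers. Diet and these differences between the adult libraries cannot be told apart. The 3 libraries labelled adult FCON also lay closer together than the libraries of the other liver groups, and with their mean counted as 1 sample 33 of the 79 genes stayed called and 46 did not (adjusted p of up to 0.255). The 33 were FABP1, TOP2A, PRC1, IGF2BP3, IGFBP2, DIO1, CYP7A1, CYP8B1, ABCG8, SCAP, FDPS, ELOVL2, ELOVL5, LIPC, NDUFB5, SLC16A1, UGP2, SLC37A4, SLC2A2, SLC19A1, AHSG, FETUB, SERPINC1, HMOX1, UGT1A1, NR1H3, EPAS1, CAMK1D, RBP, P4HB, SPI1, RAC2 and DES. Groups of 3 libraries are too small for a test of single outlying libraries. Among genes of cell division it was 3.83 for MCM3, 4.03 for MCM5, 2.91 for RRM2, 4.04 for TOP2A, 3.06 for PLK1, 3.48 for CDCA3, 4.15 for KNTC1, 2.26 for PRC1, 3.75 for MKI67 and 5.32 for TIMELESS. For genes of growth and its hormones the value was 3.06 for IGF2BP3, 2.56 for IGFBP2 and 2.73 for DIO1, and it was negative at -1.51 for IGFBP4 and -1.80 for GHR. In genes of bile acids and sterols it came to 8.77 for CYP7A1, 6.35 for CYP8B1, 4.34 for ABCG5, 4.29 for SCAP and 4.06 for FDPS. Genes of fatty acids and lipoproteins differed by 7.57 for FABP1, 1.64 for ELOVL6, 2.76 for ELOVL5, 3.63 for SREBF1, 3.09 for LPL, 4.25 for LIPC, 1.91 for LCAT and 3.18 for APOB, and it was negative at -1.89 for PNPLA2 and -2.83 for APOA4. Among genes of mitochondria and carbohydrate it was 2.12 for NDUFB5, 1.17 for UQCRH, 1.02 for ACAD9, 4.97 for SLC16A1, 2.67 for SLC37A4, 4.12 for SLC2A2 and 1.94 for LDHB, and it was negative at -3.79 for UGP2, -2.10 for LDHA and -3.84 for GPT2. For genes of folate and methionine metabolism the value was 2.32 for SLC19A1, 1.70 for FPGS and 1.86 for BHMT, and it was negative at -1.60 for CBS and -0.95 for AHCY. In genes for secreted proteins, haem, oxidants and conjugation it came to 3.43 for AHSG, 3.92 for FETUB, 2.79 for SERPINC1, 1.55 for C4A, 2.76 for UGT1A1 and 2.83 for CYP1A1, and it was negative at -2.20 for HPX, -4.19 for HMOX1 and -0.93 for GPX3. Genes of protein folding differed by 2.38 for P4HB and 1.99 for PDIA3, and it was negative at -2.46 for DDIT3, -3.74 for HSPA2 and -4.24 for HSPB9. Among genes of immune cells and interferon it was 2.55 for IFI6, and it was negative at -2.59 for GNLY, -1.83 for GBP4L, -3.59 for SPI1, -2.35 for C1QC, -3.26 for MARCO, -2.98 for CD3D and -2.88 for RAC2. For genes of other kinds the value was 2.23 for STAB2, and it was negative at -3.35 for NR1H3, -5.25 for EPAS1, -7.20 for CAMK1D, -1.13 for CHIA, -3.79 for RBP, -3.21 for MYO7L2, -5.74 for CNN1 and -2.94 for DES. The fitted values of 3 genes depend on the prior count, because a group held 0 counts: 14.69 for ELOVL2 and 10.07 for ABCG8 (0 in the adult FE livers), and 8.22 for PIGR (0 in the FCON pools).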

How the results depend on the processing

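The called genes of the FE age comparison numbered 2700. They were 4538 with limma on log2(FPKM + 1) and 4175 with limma on log2(FPKM + 0.1), of which 4111 and 3794 were higher in day-old liver. They were 762 in a test against a 2-fold threshold. Chosen after seeing the data, limma with FPKM set against the total without rRNA called 3121 genes, 1917 of them higher (61.4%), and edgeR without day-old pool 2 and adult liver 1 called 1795. Leaving out each library in turn gave 1519 to 2665 calls, and the other alternatives stayed within 1.5 times. In no alternative was one of the 2700 genes called in the opposite direction. The difference between the diets, 2054 calls, was 5776 with limma on log2(FPKM + 1), 5522 with log2(FPKM + 0.1), 2501 with FPKM against the total without rRNA, and 1252 to 2193 without 1 library. It fell to 281 with the libraries labelled adult FCON counted as 1 sample, also chosen after seeing the data. Of 132 genes named (C4 and PCK2 not counted), 97 kept their direction and side of the threshold in every alternative, and none of 3006 values reversed. The medians of the cell cycle, oxidative phosphorylation, MHC, interferon, macrophage and T and NK cell lists kept their sign in every alternative. With limma on log2(FPKM + 1), where the median of all genes moved to 0.72, 18 lists with a median between -0.90 and 0 turned positive, cholesterol synthesis to 0.66 and fatty acid synthesis to 0.51 among them.

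A replicate block for the numbers in the labels gave 2276 calls for age and 1716 for the difference between diets. Deviations from the group means of same-numbered day-old and adult libraries correlated at 0.06, 0.05 and -0.01, and those of differently numbered ones at -0.06 to 0.02. All were below the 0.1 set as the minimum for pairing, so the main fit did not pair the samples. With 3 libraries per group these values cannot exclude a pairing. With 3 libraries per group, differences smaller than the spread between pools were not detectable.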

Other observations

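Some lists are not described above. Triglyceride assembly and lipid droplets had 5 of 16 genes higher and 2 lower in day-old FE liver, and peroxisomal fatty acid oxidation 3 of 18 higher and 3 lower. Iron handling and metallothioneins had 1 of 16 higher and 6 lower, and proteasome subunits 6 of 30 higher and 1 lower. Among the 14 iron genes that reached FPKM 1 at both ages, none was higher and 6 were lower. Hepatocyte markers, which check the tissue, had 5 of 20 higher and 3 lower.

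Among other cell types, B and plasma cell markers were lower in 3 of 6 tested cases, of which IGLL1 and JCHAIN reached FPKM 1 in the adult livers alone (1 of the other 4 was lower). None was higher. Lower calls were made for thrombocyte markers in 3 of 5, and heterophil and granule genes in 3 of 8, with none higher in these lists. Erythroid markers had 1 of 11 higher and 2 lower. Adipocyte markers had 2 of 6 higher and 3 lower, and among the 4 that reached FPKM 1 at both ages 1 was higher and 2 were lower. For exocrine pancreas and for skeletal muscle only 1 marker each reached the filter, and neither was called.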
